A study of Oryza sativa Indica Group with 4 samples.

Results

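The PP2C genes of rice encode protein phosphatases of type 2C, enzymes that remove phosphate from serine and threonine of other proteins and need a metal ion to do so. The 60 members were taken by name, as genes whose symbol or synonym in the gene table is PP2C (with or without the Os prefix) followed by a number. Of these, 55 had a probe set paired with that gene alone, among 17905 such genes on the array. Probe sets for PP2C41, PP2C49, PP2C50, PP2C65 and PP2C77 were not analysed here. The members fall into the abscisic acid clade of 9 genes (PP2C06, PP2C08, PP2C09, PP2C30, PP2C49, PP2C50, PP2C51, PP2C53 and PP2C68) and 51 other genes.

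Abscisic acid is a plant hormone of drought, seed maturation and dormancy. In its absence, phosphatases of the clade hold SnRK2 protein kinases inactive. When the hormone is bound by receptors of the PYL (RCAR) family, the receptors block the phosphatases, the kinases become active and they phosphorylate bZIP transcription factors, which turn on genes such as those of dehydrins and LEA proteins. Genes of the clade are themselves among those that abscisic acid raises in many plants, so that the pathway carries its own brake.

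An Affymetrix rice array was used on RNA of panicle primordia, the young panicles, of Oryza sativa (Indica Group), at a stage labelled 0. A sample pooled 10 recombinant inbred lines, made inbred by selfing after a cross of 2 cultivars, which bore either many or few grains per panicle. The groups are called the high and the low grain number bulks. No treatment is given for either kind of bulk. There were 2 biological replications of each, so 4 arrays. The labels do not say whether the replications used the same lines or separate plants. The p-values thus cover no more than the spread between replicate arrays, which may be technical. In such tissue samples, fewer cells of a type and less RNA per cell cannot be told apart.

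Intensities are quantile normalised, in arbitrary units, and a member is represented by its brightest probe set. Contrasts, the differences between the bulks, are given as high minus low grain number on the log2(intensity + 16) scale, on which dim genes are drawn towards 0. A call is an adjusted p under 0.05 over all 34316 tested probe sets (limma, two-sided, Benjamini-Hochberg). The number of arrays limits the precision. Standard errors and intervals come from limma, which draws the spread of a probe set towards that of probe sets of like intensity. They are therefore not a gene's own replicate spread alone. Panicle and floret genes on the array fit the labelled tissue in part: MADS15, a MADS-box gene of inflorescence and floral meristems, was at 545 to 716 and OSH1, a homeobox gene of shoot meristems, at 527 to 763, whereas FZP, a gene of floret identity, lay between 0.25 and 1.28 on every array. CAB2R, a chlorophyll-binding protein gene of green tissue, was at 1896 to 2479 with overlap between the groups. Of the rest of the leaf list, LHCP lay at 278 to 423, GLO1 at 81.45 to 116.7, RBCS at 33.6 to 64.7, RCA at 37.5 to 63.9 and RBCS1 at 0.70 to 2.4. GLO1, RCA and RBCS1 had both low arrays above both high arrays, as did 17.6% of all tested probe sets. RBCS had both high arrays above both low arrays, as did 19.6%, and LHCP overlapped.

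Within the abscisic acid clade, PP2C68 and PP2C30 were lower in the bulks with many grains, and PP2C09 had a difference of similar size that missed the threshold. The 4 other measured clade genes, PP2C06, PP2C08, PP2C51 and PP2C53, had differences between -0.01 and 0.21 with overlapping groups. None of the 46 other PP2C genes tested passed (limma, 6 at an unadjusted p under 0.05).

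PP2C68 (LOC4346736), also named SIPP2C1 and PP108, had intensities of 22.4 and 36.1 in the high grain number bulks and of 103 and 106 in the low grain number bulks. Both low arrays stood far above both high arrays, and the low pair lay close together. The means were 29.2 ± 9.64 (SD, n = 2) and 104.5 ± 1.73, 3.57-fold higher in the low bulks. On the log2 scale the difference was -1.43 ± 0.22 (SE, 95% interval -1.92 to -0.94, limma adjusted p = 0.0176).

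PP2C30 (LOC4332374), a clade phosphatase studied in rice as a partner of the receptor RCAR5 and the kinase SAPK2, had intensities of 286 and 422 in the high bulks and of 939 and 731 in the low bulks. Here too the groups did not overlap, and the arrays of each group were further apart than those of PP2C68 in the low bulks. The means were 354 ± 95.8 (SD, n = 2) and 835 ± 148, 2.36-fold higher in the low bulks. Its log2 contrast was -1.22 ± 0.22 (95% interval -1.70 to -0.73, limma adjusted p = 0.0369).

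PP2C09 (LOC4327465), another phosphatase that dampens abscisic acid signalling, had intensities of 78.4 and 96.4 in the high bulks and of 211 and 178 in the low bulks. Its groups were also apart, with means of 87.4 ± 12.7 (SD, n = 2) and 194 ± 23.3. The log2 contrast was -1.02 ± 0.21 (95% interval -1.49 to -0.56), and it missed the threshold (limma adjusted p = 0.0751). Of all tested probe sets, 0.941% had a difference at least that large in size.

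**Figure D1:**
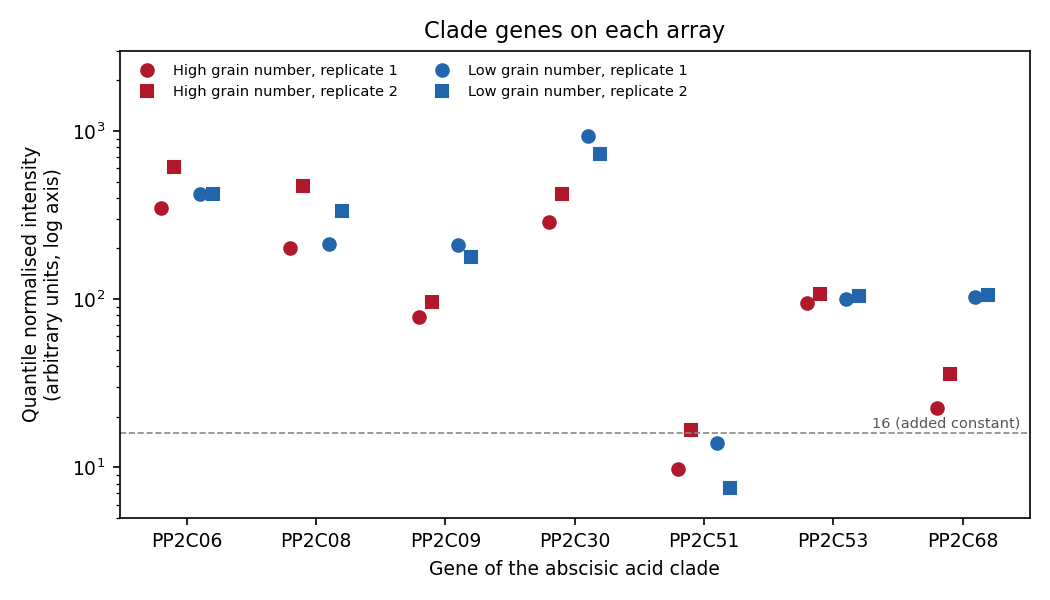
Quantile normalised intensity (arbitrary units, log axis) of the 7 measured genes of the abscisic acid clade on each of the 4 arrays, with red for high and blue for low grain number bulks, circles for replicate 1 and squares for replicate 2. PP2C09, PP2C30 and PP2C68 have both low arrays above both high arrays, while the groups overlap for PP2C06, PP2C08, PP2C51 and PP2C53.

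The remaining clade genes did not separate the bulks. PP2C53 (LOC4339797), listed also as ABIL2, was nearly level, with 95.3 and 108 in the high bulks and 100.5 and 104 in the low bulks. Its log2 contrast of -0.01 ± 0.20 had a 95% interval of -0.46 to 0.44, which does not reach the interval of PP2C68, although the difference between the genes was not tested.

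PP2C06 (LOC4324201), listed as ABIL1, had 349 and 611 in the high bulks and 423 and 419.9 in the low bulks. The spread of the high arrays took in both low values, and the log2 contrast was 0.13 ± 0.24 (95% interval -0.41 to 0.66). PP2C08 (LOC4324182) had 202 and 471 in the high bulks and 213 and 332 in the low bulks, a log2 contrast of 0.21 ± 0.34 (95% interval -0.53 to 0.94). It varied more between replicates than between bulks, since the replicate 2 array was 2.33-fold above replicate 1 in the high bulks and 1.56-fold above it in the low bulks.

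Among the 46 other members tested, PP2C64 was the only one with replicate 2 at least 1.5-fold above replicate 1 in both kinds of bulk, at 1.65-fold and 1.66-fold. With PP2C08 that makes 2 of 53 members (3.77%), against 5.16% of all tested probe sets. PP2C51 (LOC4339671), a clade gene known in rice for a role in seed germination, was dim, with 9.73 and 16.6 in the high bulks and 13.9 and 7.53 in the low bulks. At intensities around the 16 added to each value, a difference between the bulks was not detectable (log2 difference 0.13 ± 0.22, 95% interval -0.35 to 0.60). Its other probe set had a log2 contrast of -0.16 ± 0.20, of opposite sign.

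The members were chosen with earlier results of these data known, so the shares below describe them and do not test the family. A member is also its brightest probe set, whereas all tested probe sets include dimmer ones. Counted over the whole family, 2 of 53 tested members (3.77%) passed as lower in the high grain number bulks, against 0.414% of all tested probe sets. As higher, 0 passed (limma, 4 at an unadjusted p under 0.05), against 0.154%. At an unadjusted p under 0.05 there were 9 members (17.0%), 3 of them in the clade, against 8.24% of all tested probe sets. Both low arrays lay above both high arrays for 13 members (24.5%), against 17.6% of all tested probe sets, and both high arrays above both low arrays for 10 (18.9%), against 19.6%. On quantile normalised values, 27 differences were negative and 26 positive. The median was -0.01 for the clade, 0.01 for the other members and 0.01 for all tested probe sets. Under the deposited scaling these medians were -0.20, -0.16 and -0.07. There, 38 of the 53 members were negative and 15 positive, where 37.9% of all tested probe sets were positive. The nearly even signs depended on the scaling and on the arrays. On quantile normalised values, 20 members were negative and 32 positive without the high replicate 1 array. Without the high replicate 2 array, 31 were negative and 22 positive. The clade's median lies among its 4 genes with overlapping groups and does not describe PP2C09, PP2C30 and PP2C68, and its mean was -0.46. Without the high replicate 2 array, all 7 clade differences were negative.

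**Figure D2:**
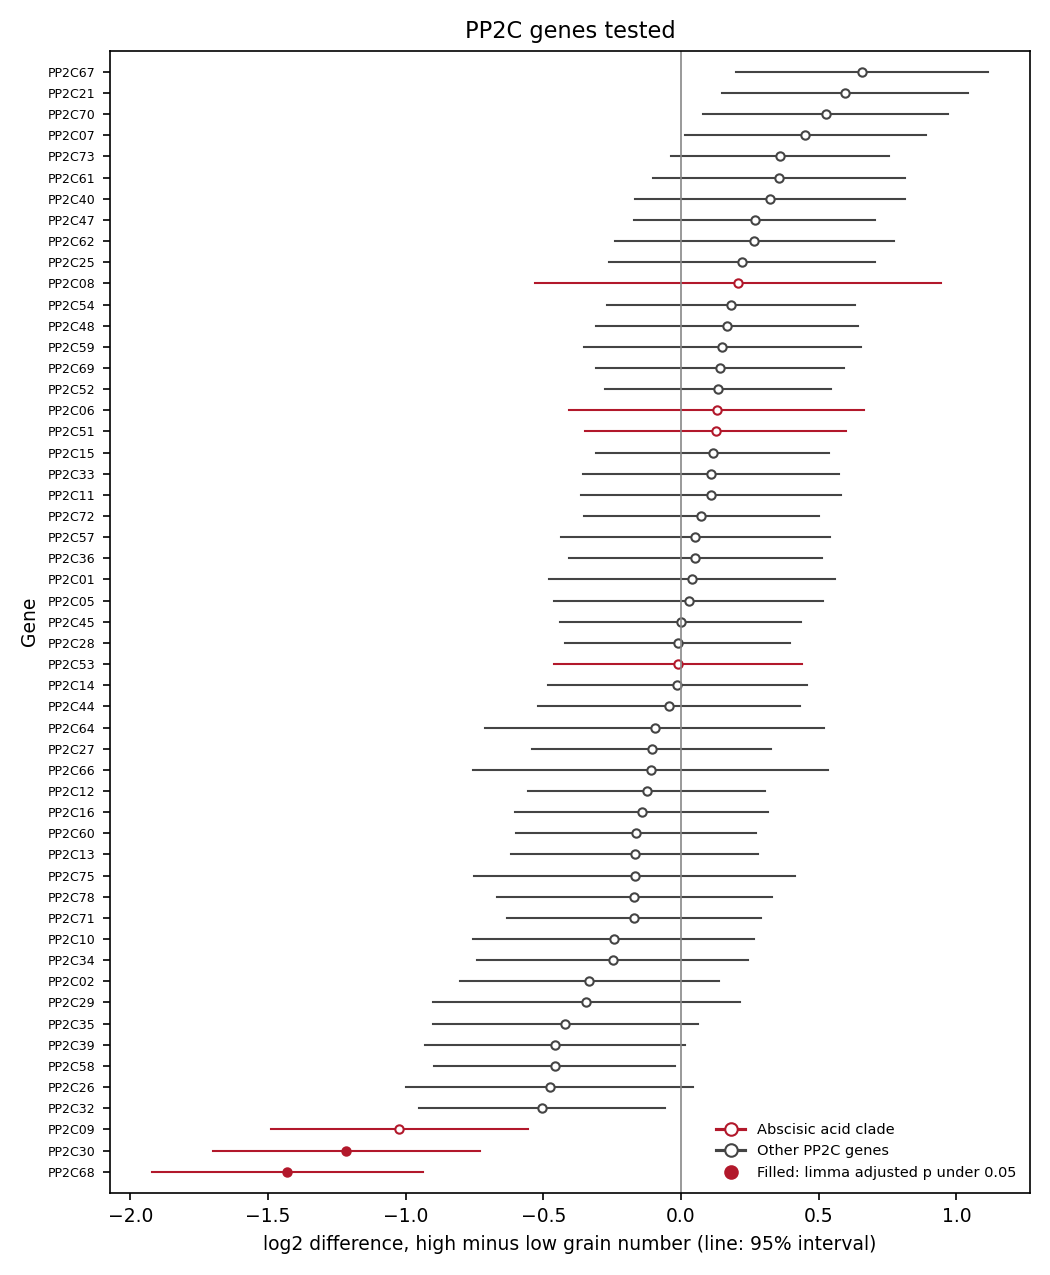
Log2 difference between high and low grain number bulks (horizontal axis, high minus low) for the 53 PP2C genes tested, ordered by value, with 95% intervals as lines, red for the abscisic acid clade and dark grey for the other members. Filled points, PP2C68 and PP2C30, passed an adjusted p of 0.05, and the other 46 members outside the clade lie between -0.50 and 0.66.

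The calls rest on few arrays. Without the high replicate 1 array, the low replicate 1 array or the low replicate 2 array, 0 members passed (limma), whereas with any 1 array left out the log2 difference lay between -1.67 and -1.22 for PP2C68, between -1.47 and -0.96 for PP2C30 and between -1.15 and -0.90 for PP2C09. With no filter on dim probe sets 0 members passed either (limma adjusted p = 0.429 for PP2C68 and 0.698 for PP2C30), and PP2C30 did not pass with log2(value + 1), with the filter at the 60th percentile or without a variance trend (limma adjusted p = 0.0616, 0.0632 and 0.0582).

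**Figure D3:**
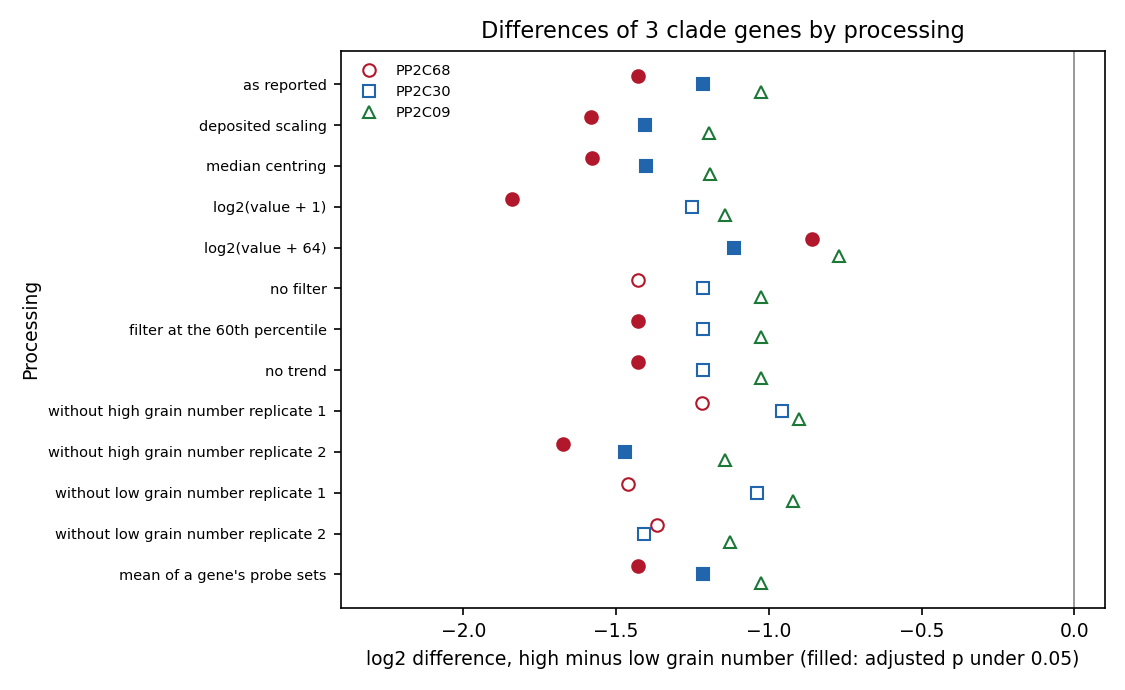
Log2 difference (horizontal axis, high minus low) of PP2C68 (red circles), PP2C30 (blue squares) and PP2C09 (green triangles) under each way of processing the arrays without a replicate term (rows), with filled symbols for an adjusted p under 0.05. All values lie between -1.84 and -0.77, and none of the 3 genes passed with no filter or without the high replicate 1, low replicate 1 or low replicate 2 array.

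Outside the clade the differences were small, from -0.50 to 0.66, and did not pass. PP2C67 (LOC4346692) had the largest positive one, with 192 and 196 in the high bulks and 104 and 132 in the low bulks, a log2 contrast of 0.66 ± 0.21 (limma adjusted p = 0.347). Its groups did not overlap, and the high pair was tight. PP2C21 (LOC4329930) had 139 and 132 in the high bulks against 87.8 and 80.4 in the low bulks, a log2 contrast of 0.60 ± 0.20 (limma adjusted p = 0.406). PP2C70 (LOC4347831) had 154 and 139.8 against 98.9 and 95.4, a log2 contrast of 0.52 ± 0.20. PP2C07 (LOC9269413) had 161 and 156 against 111.5 and 111.8, a log2 contrast of 0.45 ± 0.20. For each of these the high arrays were above the low arrays, by at most 1.64-fold in the means.

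PP2C73 (LOC4349568) was measured by 3 tested probe sets that all pointed the same way. The brightest had 724 and 621 in the high bulks and 491 and 549.9 in the low bulks, a log2 contrast of 0.36 ± 0.18 (limma adjusted p = 0.667), and the others had 0.49 ± 0.20 and 0.47 ± 0.20. Agreement of this kind was not general. Of the 11 members with several tested probe sets, 8 had probe sets of both signs. The tested probe sets of the 11 held 0 calls (limma, 4 with an unadjusted p under 0.05). In PP2C62 (LOC4343331) the brighter probe set had 0.27 ± 0.23 and the dimmer one, at a mean of 4.54, had -0.49 ± 0.18.

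On the negative side, PP2C32 (LOC4332509) had the largest difference outside the clade, with 19.8 and 23.7 in the high bulks and 36.5 and 38.5 in the low bulks, a log2 contrast of -0.50 ± 0.20 (limma adjusted p = 0.539). The groups did not overlap, at intensities little above the added 16. PP2C26 (LOC4330377) had 87.7 and 69.7 against 93.8 and 140.9, a log2 contrast of -0.48 ± 0.24. PP2C58 (LOC4341693) had 127 and 131 against 189 and 177, a log2 contrast of -0.46 ± 0.20. PP2C39 (LOC9271405) had 22.1 and 16.3 against 37.4 and 27.5, a log2 contrast of -0.46 ± 0.21. Its dimmer probe set, at a mean of 7.32, had -0.05 ± 0.19. PP2C35 (LOC4334600), listed also as XB15, a phosphatase that binds the immune receptor kinase XA21 and restrains its signalling, had 52.1 and 70.2 against 93.1 and 80.5, a log2 contrast of -0.42 ± 0.22. In their brightest probe sets, all of these had both low arrays above both high arrays, and none passed (limma adjusted p from 0.539 to 0.688).

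Intensities of different probe sets cannot be set against each other, but some members gave a bright signal that was level between the bulks. PP2C28 (LOC4331548) had 632 and 832 in the high bulks and 750.5 and 712 in the low bulks, a log2 contrast of -0.01 ± 0.19 (95% interval -0.42 to 0.40). PP2C52 (LOC4339763) had 324 and 316 in the high bulks and 293 and 286 in the low bulks, a log2 contrast of 0.13 ± 0.19 that was -0.05 under the deposited scaling. Of the other members with a probe set, PP2C18 and PP2C31 were too dim to be tested, with intensities of 1.15 to 9.65 and of 0.25 to 2.05. The standard error of a tested member lay between 0.18 and 0.34 on the log2 scale.

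The next question was whether other genes of the abscisic acid pathway, as far as they were matched by name, moved with PP2C68 and PP2C30. Pathway genes under other names were not examined. No other gene of the 5 pathway lists passed over all probe sets, and the lists differed in their spread of values. The receptor list, matched by symbol, held 1 gene, PYL11 (LOC4338104, listed also as PYL5 and RCAR5), which had 103 and 85.1 in the high bulks and 118 and 91.6 in the low bulks. The bulks overlapped, with a log2 contrast of -0.13 ± 0.22.

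All 10 SnRK2 kinase genes, SAPK1 to SAPK10, were tested, 5 with a negative and 5 with a positive difference, and 0 passed (limma, 1 at an unadjusted p under 0.05). Their median was 0.01, as for all tested probe sets. SAPK9 (LOC4352660) had 88.4 and 76.2 in the high bulks and 57.3 and 43.4 in the low bulks, with no overlap and a log2 contrast of 0.57 ± 0.22 (limma adjusted p = 0.488). SAPK8 (LOC4334218) had 266 and 285 against 232 and 229, a log2 contrast of 0.24 ± 0.19. On the negative side, SAPK4 (LOC4324934) had 207 and 116 in the high bulks and 266 and 147 in the low bulks, a log2 contrast of -0.32 ± 0.30. SAPK6 (LOC4329630) had 140.03 and 97.9 against 133 and 137, a log2 contrast of -0.18 ± 0.22. The groups of SAPK4 and SAPK6 overlapped.

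The transcription factors matched by name were ABF2 and TRAB1, both of the bZIP family, and VP1, a B3 factor of seed maturation. ABF2 (LOC4330838, listed also as BZIP23) had a log2 contrast of -0.05 ± 0.21 and TRAB1 (LOC4345807) of 0.13 ± 0.28, and neither passed. VP1 was too dim to be tested, at 0.25 to 7.1.

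In the list of abscisic acid synthesis and breakdown, 0 of 4 tested members passed (limma, 1 at an unadjusted p under 0.05). A further 3 of the 7 genes matched, NCED3 among them, had no probe set paired with that gene alone. ZEP1 (LOC4335984), a zeaxanthin epoxidase of an early step of synthesis, had 17.3 and 28.9 in the high bulks and 64.7 and 51.95 in the low bulks. Both low arrays were above both high arrays, with a log2 contrast of -0.94 ± 0.23 (limma adjusted p = 0.143). ZEP1 passed after median centring (limma adjusted p = 0.0303) but not under the deposited scaling (0.126). Median centring gave 332 lower and 59 higher calls over all probe sets. ABA8OX1 (LOC9269675), an abscisic acid 8'-hydroxylase that breaks the hormone down, had a log2 contrast of -0.43 ± 0.23. ABA8OX2 (LOC4345810), a second 8'-hydroxylase gene, had 156 and 109 in the high bulks and 124 and 124.1 in the low bulks, with overlap and a log2 contrast of 0.07 ± 0.22. The fourth member of the list, TRAB1, is held through an older synonym, ABA1, and is the transcription factor given above. It counts in every median given for this list.

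Of 9 tested genes that respond to abscisic acid or drying, 7 had a negative difference, against 47.9% of all tested probe sets, and 0 passed (limma, 5 at an unadjusted p under 0.05, 4 of them negative, against 8.24% of all tested probe sets). The list's median was -0.45, against 0.01 for all tested probe sets. This list, too, was chosen with earlier results of these data known, so its shares are description only. RAB16B (LOC4350453), a dehydrin gene, had 14.03 and 31.1 in the high bulks and 100.2 and 63.4 in the low bulks, a log2 contrast of -1.35 ± 0.27 (limma adjusted p = 0.0646). RAB21 (LOC4350454), a dehydrin gene of the same cluster, had 13.7 and 37.7 against 72.7 and 104, a log2 contrast of -1.37 ± 0.29 (limma adjusted p = 0.0792). Both passed under the deposited scaling (limma adjusted p = 0.00362 and 0.00337), and neither passed with log2(value + 1) (0.118 and 0.156), with no filter (0.698 for both) or without the high replicate 1, low replicate 1 or low replicate 2 array (from 0.149 to 0.598). The deposited scaling, set aside because the trimmed means differed, gave 233 lower and 37 higher calls over all probe sets. In RAB16B and RAB21 the low arrays stood above the high arrays, and high grain number replicate 1 was the lowest array, as for PP2C09, PP2C30 and PP2C68. The same order held for the secondary wall genes CESA4, CESA9 and BC1 (LOC4333114), though not for CESA7. It was thus not particular to abscisic acid genes. RAB16C (LOC4350452), another tested gene of the cluster, was dim and overlapped, with 9.83 and 10.6 in the high bulks and 13.8 and 8.0 in the low bulks and a log2 contrast of -0.03 ± 0.20. Dehydrin genes of this cluster are alike in sequence, and how far the probe sets tell them apart was not tested.

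DHN1 (LOC4330265), another dehydrin gene, had 1239.7 and 1800.4 in the high bulks and 2555 and 2327 in the low bulks, a log2 contrast of -0.70 ± 0.18 (limma adjusted p = 0.180). EM (LOC4338499), a LEA protein gene of maturing seeds, was dim, at 0.7 and 8.43 against 11.5 and 16.2, with -0.56 ± 0.22. RAB25 (LOC4326935) had 57.3 and 46.7 against 80.2 and 73.4, a log2 contrast of -0.45 ± 0.21 with no overlap. LEA3 (LOC4339480), a LEA protein gene, had 74.3 and 76.1 against 62.1 and 104.7, with overlap and a log2 contrast of -0.09 ± 0.24. Of the 9, 2 were positive. BURP3 (LOC4324159), a gene of the BURP-domain family, had 562 and 614 in the high bulks and 286 and 339 in the low bulks, a log2 contrast of 0.88 ± 0.19 (limma adjusted p = 0.0823, and 1.00 under the deposited scaling). SALT (LOC4326471), a salt-induced gene, had 44.8 and 3.83 against 14.6 and 10.05, a log2 contrast of 0.30 ± 0.40, and its 2 high arrays lay on either side of the low ones.

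**Figure D4:**
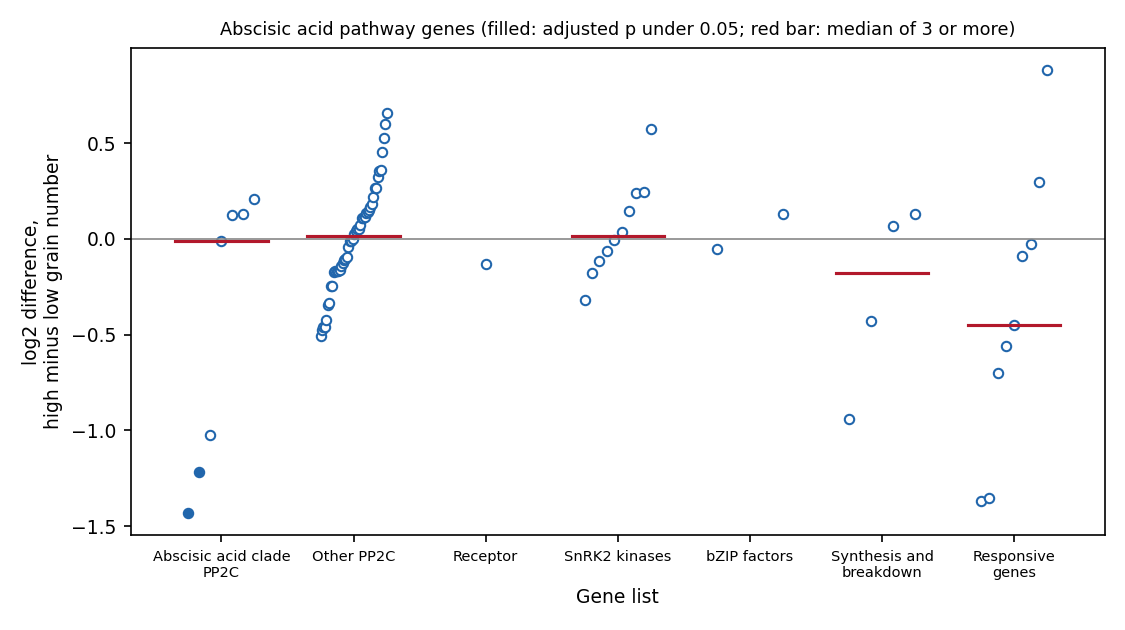
Log2 difference (vertical axis, high minus low grain number) of every tested gene of the abscisic acid clade, of the other PP2C genes and of 5 lists of abscisic acid pathway genes, 1 point a gene in each list, with a red bar at the median of lists of 3 or more. TRAB1 is drawn both among the bZIP factors and in synthesis and breakdown. PP2C68 and PP2C30 are the filled points that passed, the SnRK2 kinases spread about 0 from -0.32 to 0.57, and 7 of the 9 responsive genes lie below 0.

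Other measures differed between the same bulks. The marker lists were also chosen with earlier results of these data known. Of 5 stem wall markers tested, 3 passed, all lower in the high bulks, against 0.414% of all tested probe sets called lower, and the summed intensity of the list was 78.9 to 104.5 on the high arrays and 357 to 438 on the low arrays. The secondary wall genes CESA4, CESA7 and BC1 (LOC4333114) passed and CESA9 did not (-0.83 ± 0.21), and the fifth, LOC4347540, is a bHLH factor held through the synonym BC1. Of 7 tapetum markers tested, RTS passed as lower, against the same 0.414%, and it lay between 0.88 and 1.53 on the high arrays and between 224 and 553 on the low arrays. The list's summed intensity was 274 to 490.1 on the high arrays and 1049.7 to 1760.2 on the low arrays, which RTS and C6 (LOC4350790, 26.2 and 293 against 650 and 993) carried. Without them the other 5 markers summed to 246.7 and 196 in the high bulks against 176 and 214 in the low bulks, and 4 of the 7 had a positive difference. Among those 4 is LOC4327535 (0.19 ± 0.22), listed as a cystatin and held through the synonym CP1. The panicle, leaf and late floral lists had 0 calls among 10, 5 and 9 tested members (limma, 1, 0 and 0 at an unadjusted p under 0.05), with medians of 0.00, -0.08 and 0.00. The 1 panicle gene was SPL14 (LOC4345998), with 144.5 and 185 in the high bulks and 492 and 282 in the low bulks. Its log2 contrast was -1.12 ± 0.26 (limma adjusted p = 0.122). Of the 10 panicle genes, 5 had a negative and 5 a positive difference. MADS18 (LOC4343851) counts in both the panicle and the late floral list, the latter through the synonym MADS2. For RNA quality, the signal at the 3' end of actin over that at its 5' end came to 33.3 and 36.9 in the high bulks against 42.2 and 47.8 in the low bulks, and for GAPDH it came to 51.9 and 34.4 against 85.2 and 67.6. On all 4 arrays, and for both genes, the 3' signal was thus at least 33.3-fold the 5' signal. The part of these markers and of RNA quality in the differences of PP2C68, PP2C30 and the responsive genes was not tested.

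Since lines selected for a trait may carry the same parental segments, the genes beside the clade members were read in gene order. Among the 20 nearest tested genes of each (10 on either side), 0 passed (limma), with medians of -0.17 around PP2C68, -0.07 around PP2C30 and -0.15 around PP2C09. Of these neighbours, 11, 15 and 16 of 20 had a negative difference, against 47.9% of all tested probe sets. They ranged from -0.56 to 0.59 around PP2C68, from -1.17 to 0.37 around PP2C30 and from -0.50 to 0.61 around PP2C09. No pair of tested members lay within 10 tested genes of each other.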

How the data were processed

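RNA labelled with biotin was hybridised to an Affymetrix rice array, per the labels' protocols. The authors deposited linear intensities, 1 for each probe set on each array. The processing software was GCOS 1.2, per the submitters' processing notes, with a scaling target not given in the sources used here. The trimmed means (2% at each end) of the 4 arrays ranged from 36.5 to 55.3, a ratio of 1.52, above the 10 percent allowed for keeping the deposited scaling, so intensities were quantile normalised. Control probe sets (187 of 57381) were left out. On the log2(intensity + 16) scale, the dimmest probe sets, under the 40th percentile of the mean, were dropped, which kept 34316. The test was limma's (version 3.58.1, R 4.3.3) with a variance trend and no term but group, and p-values were adjusted by Benjamini-Hochberg with a threshold of 0.05. The steps were tested on simulated data.

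Probe sets were named through a platform table, which can be old, and the NCBI gene table of assembly ASM3414082v1. Of the probe sets, 22436 were paired with 1 gene and 95 with several, and none of the latter was named. The files name no genome build, so no coordinates are given, and the gene order of that assembly was used only to find neighbours.

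The members and lists were chosen with earlier results of these data known. Lists were matched by symbol or synonym, so some hold genes of other families. The genes named are all measured clade members, other members with the smallest p (5 a direction) or the brightest signal, and up to 2 members per direction of each pathway list. Beyond that rule, all 9 tested responsive genes are given, a choice made with their values known. Alternatives were another scaling, added constant, filter, variance trend, probe set rule, a replicate block and each array left out.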

Additional observations from a re-analysis of the deposited data

How the results depend on the processing

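Between 30.9% and 35.2% of probe sets per array reached a deposited intensity of 16, the added constant, so the differences of dim genes are compressed. The number of PP2C genes lower in the high bulks and past the threshold (2) was 1 with log2(value + 1), the filter at the 60th percentile or no variance trend (PP2C68 each time), 0 with no filter, and 0 to 2 with an array left out. Where 1 array is left in a group, its spread is taken from the pair in the other. As higher, 0 members passed under every alternative run. With the deposited scaling and with median centring, in that order, the median was -0.20 and -0.20 for the clade, -0.16 and -0.15 for the other members, -0.12 and -0.12 for the SnRK2 kinases, -0.36 and -0.36 for synthesis and breakdown and -0.59 and -0.58 for the responsive genes, where the median of all tested probe sets was -0.07 and -0.07. The responsive genes' median was -0.56 with log2(value + 1), -0.18 with log2(value + 64) and -0.27 with the filter at the 60th percentile. With an array left out, medians ranged from -0.37 to 0.06 (clade), -0.023 to 0.080 (other members), -0.018 to 0.14 (SnRK2 kinases), -0.47 to -0.10 (synthesis and breakdown) and -0.43 to -0.34 (responsive genes), and the clade's median minus that of the other members from -0.36 to -0.015. Of the responsive genes, median centring called 3 lower, the deposited scaling 2 and the fits with an array left out 0 to 3. Of synthesis and breakdown, 1 (ZEP1) was after median centring. Over all probe sets the 195 calls (53 higher, 142 lower) became 391 with median centring (59 higher, 332 lower), 270 with the deposited scaling (37 higher, 233 lower), 128 with log2(value + 1), 0 with no filter (limma, 3849 at an unadjusted p under 0.05) and 53 to 229 with an array left out.

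The labels do not say what a shared replicate number means, and the replicate differences of the high and low bulks correlated at 0.11 across tested probe sets. With the replicate block, which leaves 1 residual degree of freedom, 654 probe sets passed against 195. These held 3 PP2C genes (PP2C09, PP2C30 and PP2C68), 3 responsive genes lower and 1 higher (BURP3), and 1 gene of synthesis and breakdown (ZEP1).

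Among the genes named, signs turned for 15, none of them called in any of these fits. PP2C06 had -0.025 (deposited scaling) and -0.022 (median centring), TRAB1 -0.040 and -0.037, PP2C52 -0.049 and -0.046, ABA8OX2 -0.12 and -0.11, and PP2C51 -0.017 as the mean of its probe sets. With an array left out, values ranged from -0.26 to 0.52 for PP2C06, -0.37 to 0.79 for PP2C08, -0.20 to 0.18 for PP2C28, -0.047 to 0.31 for PP2C51, -0.090 to 0.065 for PP2C53, -0.33 to 0.23 for ABF2, -0.37 to 0.62 for TRAB1, -0.29 to 0.028 for PYL11, -0.71 to 0.077 for SAPK4, -0.41 to 0.047 for SAPK6, -0.16 to 0.30 for ABA8OX2, -0.52 to 1.14 for SALT, -0.41 to 0.22 for LEA3 and -0.17 to 0.13 for RAB16C. Where no filter, another scaling or another constant moved a value, the cause was not tested. The planned count of PP2C37 with the clade was not run, since no gene here carries that name.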
